A study of Laetiporus sulphureus with 6 samples.

Results

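The genes described here belong to the brown-rot fungus *Laetiporus sulphureus* ATCC 52600. The study's annotation list of wood-decay genes, which also covers carbohydrate-active enzymes and transporters, places them in the class Redox and in no other class. They were taken from that list by name and by no measured value. The list holds 207 such genes, of which 179 are among the 10015 genes of the deposited count table and 28 are not analysed here. Most are dehydrogenases, reductases and oxygenases known only by a predicted domain: 140 of the 179 carry a Pfam domain. For 112 the Gene Ontology term listed is the general one for oxidoreductase activity. RNA came from 2 conditions of *L. sulphureus* ATCC 52600, with 3 samples each. For the bagasse cultures (BIN), mycelium of the pre-inoculum was filtered, washed and kept for 24 h at 30 °C and 180 rpm in 100 mL of a mineral salt medium of pH 7 with 1 g of in natura sugarcane bagasse. The pre-inoculum itself (T0) was mycelium grown from 15 agar discs for 7 days in 100 mL of liquid medium at the same temperature and shaking. For BIN the mycelium was collected together with its substrate. Effects of the washing and transfer, the further 24 h, the fresh mineral medium, the bagasse in it and the collected substrate cannot be told apart. The labels do not say whether the 3 samples of a condition came from separate inocula, so p-values measure the spread between these samples, which may be technical.

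Oxidoreductases move electrons between a substrate and a carrier such as NAD(P), a flavin, a haem or a pair of cysteine thiols. In a wood-decay fungus they serve respiration, sugar and lipid metabolism, the repair of oxidized proteins and the conversion of small aromatic molecules that leave lignin. Brown-rot fungi are known for an oxidative attack on the plant cell wall that comes before or beside its hydrolysis. The annotation list gives cytochromes P450, alcohol dehydrogenases and aldo/keto reductases classes of their own. The class Redox mixes many other enzyme types, and also holds some genes with P450 or alcohol dehydrogenase-like domains. Here its genes were grouped by their Pfam domain into 15 domain classes and a group of 39 genes with no domain listed.

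The libraries held from 9541028 to 15331728 counts, and every gene of the table had at least 10 counts in every library. Values per gene are CPM, that is, counts scaled to a common library size with edgeR's TMM factors. The table holds only genes with 1 CPM or more in each library before TMM scaling. Some redox genes lay close to that cut, such as g8197 with 1.41, 1.58 and 1.59 CPM in BIN. Falls to below the cut, or rises from below it, cannot be seen in this table. Where levels of different genes are compared, the deposited TPM values, which are scaled by gene length, are used. Calls of higher or lower in BIN rest on an edgeR adjusted p of 0.05 or less together with a change of 2-fold or more.

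Redox genes moved in both directions on bagasse. Of the 179 genes, 30 (16.8%) were called higher and 40 (22.3%) were called lower in BIN, while over all genes 11.3% were called higher and 14.5% lower. The highest rises belonged to g5203, a 2-hydroxyacid dehydrogenase, g6178, a catechol dioxygenase-type protein, and g7471, an NmrA-like protein. The deepest falls belonged to g10097, a cytochrome P450, g3164, with a fatty acid desaturase domain, and g7174, with a desaturase-type function term. Changes of 4-fold or more were found upward in 10 genes and downward in 11, against 2.96% and 4.18% of all genes. Another 66 genes passed on the adjusted p alone with a change of less than 2-fold, and 43 genes did not.

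All 3 BIN libraries lay above all 3 T0 libraries for 69 of the 179 genes and below them for 74, where all genes gave 37.6% and 38.0%. None of the 70 called genes had overlapping conditions. With 3 libraries each, passing both thresholds makes such separation likely, so this count says nothing particular about redox genes. The median log2 fold change of the redox genes was -0.07, and that of all genes was near 0 (-0.0038). On the TPM scale the median of all genes itself lay 0.40 above 0 (limma, log2 of TPM + 1), so that 45 redox genes were called higher and 20 lower there, and the directions given below are those of the TMM-normalized counts. With library size alone as the scaling the split was 36 higher and 33 lower. Of the 70 called genes, 42 kept their call in every alternative in which they were tested, 22 of them higher and 20 lower in BIN, and none changed sign in any. Because the libraries were made from whole mycelium, a change in RNA per cell and a change in the share of one kind of hyphal cell cannot be told apart.

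**Figure D1:**
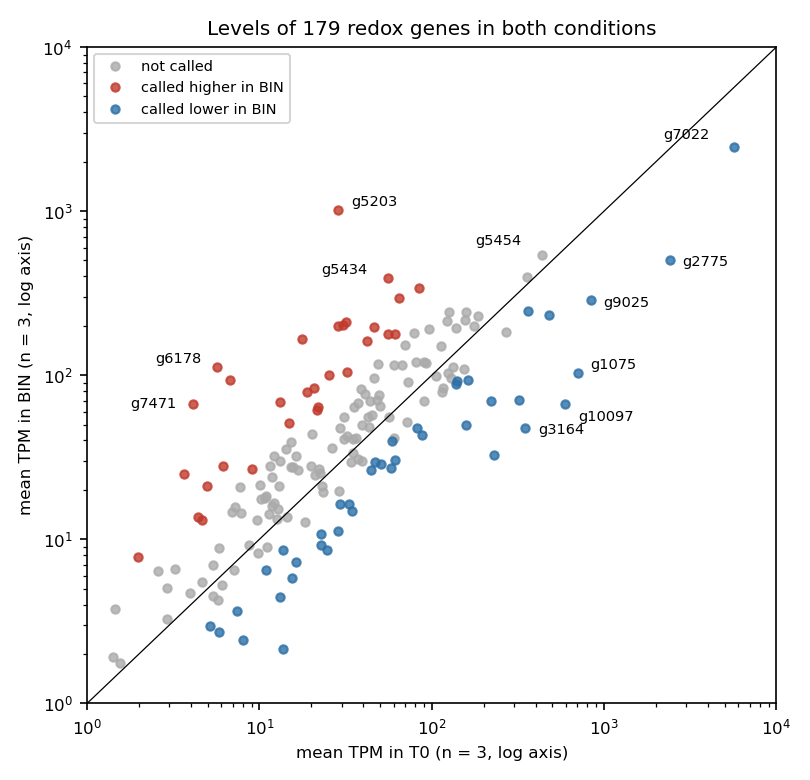
Mean TPM of each of the 179 redox genes in BIN (vertical) against T0 (horizontal), both on log axes with 3 libraries per condition, coloured by the edgeR call on counts, with a line of equal TPM. Most called genes lie well off the line on both sides, g5203 farthest above it at 1009 TPM in BIN against 28.7 TPM in T0, while 82 of the 109 genes not called lie above the line, where the median of all genes also lay.

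The redox transcripts summed to a lower level on bagasse. Their TPM summed to 16220, 16550 and 17120 in the BIN libraries, against 21070, 19410 and 19490 in the T0 libraries. Each BIN sum lay below each T0 sum, a description with no test, since 3 libraries against 3 cannot give a permutation p below 0.1. The means were 16630 ± 456 TPM in BIN and 19990 ± 936 TPM in T0 (SD, n = 3 each), which is 1.66% and 2.00% of all TPM. On the TPM scale the thioredoxin-domain gene g7022 alone fell by nearly as much as the sum. Without g7022 the sums were 13580, 14090 and 14870 TPM in BIN and 14340, 14850 and 13830 TPM in T0, and the conditions overlapped. Other genes moved in both directions, with means in BIN and T0 of 503 and 2397 TPM for g2775 and 1009 and 28.7 TPM for g5203. In CPM, which is not scaled by gene length, g1075 fell more than g7022. Its means were 380 CPM in BIN and 3538 CPM in T0, against 768 and 2420 CPM for g7022.

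The g7022 transcript was the most abundant of the list in both conditions, at 2456 ± 194 TPM in BIN and 5651 ± 1083 TPM in T0 (SD, n = 3 each). It took 14.8% ± 1.56 of the summed redox TPM in BIN and 28.2% ± 4.28 in T0. The 10 most abundant genes together held 38.9% ± 1.20 of it in BIN and 60.8% ± 3.90 in T0, so that the pool was spread more evenly on bagasse. Only 6 genes were among the 10 most abundant in both conditions, which is 60% of each list. In BIN the order of mean TPM after g7022 was g5203, g5454, g2775, g5798 and g5434. In T0 it was g2775, g9025, g1075, g10097 and g2639, where g9025, with 1209, 554 and 751 TPM, overlapped g1075, with 753, 690 and 678 TPM, and g10097, with 635, 562 and 591 TPM. The g5203 level varied most among these in BIN, with 614, 917 and 1496 TPM in replicates 1, 2 and 3, all above the 544, 531 and 546 TPM of g5454. The levels of g5798 and g5434 overlapped there, with 375, 418 and 402 TPM and 350, 357 and 469 TPM. Across the list, mean levels ran from 1.77 to 2456 TPM in BIN and from 1.41 to 5651 TPM in T0, with 44 genes over 100 TPM in BIN and 33 in T0.

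**Figure D2:**
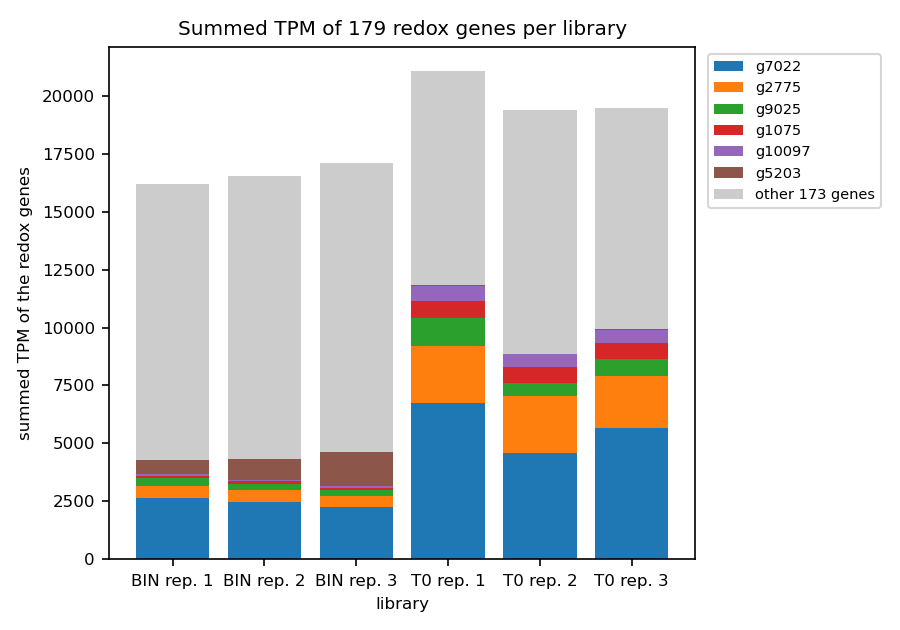
Summed TPM of the 179 redox genes in each library, stacked by 6 named genes and the other 173. The 3 BIN bars reach 16220 to 17120 TPM and the 3 T0 bars 19410 to 21070 TPM, with g7022 and g2775 the widest bands in T0 and g5203 visible only in BIN.

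Enzymes of the 2-hydroxyacid dehydrogenase family, which use NAD(H) to interconvert 2-oxo acids and 2-hydroxy acids and include glyoxylate and pyruvate reductases and formate dehydrogenases, split into 2 genes that rose, 2 that fell and 1 that was not called. Among all genes 11.3% were called higher and 14.5% lower. The highest rise of the whole list was in the 2-hydroxyacid dehydrogenase family. The gene g5203 had 636, 927 and 1556 CPM in BIN replicates 1, 2 and 3, against 62.0, 24.9 and 35.6 CPM in T0 replicates 1, 2 and 3. The lowest BIN library was 10.3 times as high as the highest T0 library, although the BIN libraries themselves differed by up to 2.445 times. Its log2 fold change was 4.68 ± 0.51 (SE), edgeR adjusted p = 0.000244. It was 93rd of the 179 genes by TPM in T0 and second in BIN.

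The second riser of this family, g5434, had 407, 404 and 546 CPM in BIN and 93.5, 79.6 and 88.5 CPM in T0. Its lowest BIN library was 4.33 times as high as its highest T0 library, and the log2 fold change was 2.38 ± 0.14 (SE), edgeR adjusted p = 6.48e-07. The related g9997 did not pass the test, with 28.0, 27.0 and 31.4 CPM in BIN and 30.5, 33.4 and 33.2 CPM in T0. Both fallers were genes of low abundance. The gene g1286 had 2.90, 2.68 and 3.62 CPM in BIN and 14.5, 6.91 and 5.61 CPM in T0, with T0 replicate 1 far above the other two T0 libraries. The log2 fold change was -1.49 ± 0.37 (SE), edgeR adjusted p = 0.00758, a call that was lost when the change was tested against the 2-fold threshold itself (glmTreat) and on both TPM scales. The gene g1300, with the NAD-binding domain of the family, fell with -1.17 ± 0.16 (SE) on the log2 scale, a call that was lost under glmTreat, on the TPM scales and with the length trend removed. The TPM of the 5 genes summed to 998, 1309 and 2005 in BIN, against 138, 118 and 115 in T0. Of these genes, g5203, g5434 and g1286 also appear, as dehydrogenases, in the study's list of proteins identified in culture supernatants. Those supernatants came from separate static cultures of 7 days on Avicel, steam-exploded plant materials or glucose, not from BIN or T0.

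All 5 genes grouped here as ring-cleavage and related oxygenases were called higher, against 11.3% of all genes. The grouping was made by hand from unlike domains with earlier results of these data known, so that their common direction is a description only. In sum they had 909, 969 and 1129 TPM in BIN, against 186, 223 and 190 TPM in T0. Of these, g6178 has the N-terminal domain of catechol dioxygenases, which cleave catechols between their hydroxyl groups, g109 the domain of extradiol dioxygenases, which cleave beside them, g3898 the domain of myo-inositol oxygenase, which turns inositol into glucuronate, and g1621 and g1346 a domain known from questin oxidase, which opens an anthraquinone ring in *Aspergillus terreus*. Each of the 5 calls was kept in all 17 alternatives, although those with no filter or unadjusted p could not remove a call. The function term of g6178, for dioxygenases that insert both atoms of oxygen, is shared by 2 tested genes with no domain listed, neither of them called higher: g523 was called lower, with -1.08 ± 0.15 (SE), and g3838 was not called, with 0.19.

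For g6178 the values were 92.6, 106 and 134 CPM in BIN and 9.34, 7.75 and 5.68 CPM in T0. The conditions were 9.91-fold apart at their nearest libraries, and the log2 fold change was 3.89 ± 0.20 (SE), edgeR adjusted p = 8.96e-07. For g109 the BIN libraries held 161, 145 and 142 CPM and the T0 libraries 30.5, 28.4 and 32.6 CPM. That spread was narrow in both conditions beside a log2 fold change of 2.29 ± 0.09 (SE), edgeR adjusted p = 6.64e-08. The myo-inositol oxygenase-type gene g3898, the most abundant of the 5 in BIN, had 242, 295 and 339 CPM there and 111, 79.4 and 107 CPM in T0, a log2 fold change of 1.56 ± 0.16 (SE). The questin oxidase-like genes g1621 and g1346 rose as well. The gene g1621 had 338, 315 and 435 CPM in BIN and 82.3, 145 and 86.2 CPM in T0, where replicate 2 was the highest. Its neighbour in type, g1346, had 65.7, 65.8 and 88.6 CPM in BIN and 29.5, 26.9 and 30.0 CPM in T0. Their log2 fold changes were 1.79 ± 0.24 (SE) and 1.35 ± 0.13 (SE).

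Thiol-disulphide enzymes leaned the other way. These small proteins, the thioredoxins and glutaredoxins, reduce disulphide bonds in other proteins, and ERO1 forms such bonds in the endoplasmic reticulum. Of 10 genes, 5 were called lower, 1 was called higher and 4 were not called, against 14.5% lower and 11.3% higher over all genes. Their summed TPM was 4895, 4768 and 4562 in BIN, against 10980, 8982 and 9789 in T0. Their genes are short, with a median of 0.457 of the length of the median gene of the table, and across all genes the log2 fold change went with length (Spearman's rho = 0.335 over 10015 genes, a description over genes of the same 6 libraries). With that trend removed, and on the TPM scale, 3 of the 5 remained below the 2-fold line, namely g2775, g7022 and g2639.

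The glutaredoxin-domain gene g2775 had 196, 203 and 188 CPM in BIN and 1383, 1198 and 1219 CPM in T0. Its conditions were 5.90-fold apart at their nearest libraries, and the log2 fold change was -2.69 ± 0.11 (SE), edgeR adjusted p = 9.5e-08. The thioredoxin-domain gene g7022 had 833, 757 and 713 CPM in BIN, against 3022, 1761 and 2476 CPM in T0. The T0 libraries ranged widely but all stood above the BIN libraries, with a log2 fold change of -1.66 ± 0.19 (SE), edgeR adjusted p = 5.44e-05. Another thioredoxin-domain gene, g2639, had 110, 106 and 117 CPM in BIN and 289, 299 and 326 CPM in T0, a log2 fold change of -1.46 ± 0.09 (SE). The glutaredoxin-domain genes g4383 and g4975 changed by -1.22 ± 0.08 (SE) and by -1.0 ± 0.11 (SE). The second of these sat on the 2-fold line and kept its call in only 4 of 17 alternatives. The riser was g533, a thioredoxin-domain gene annotated with a signal peptide, as found on secreted or secretory-pathway proteins. It had 172, 173 and 212 CPM in BIN and 69.6, 84.5 and 80.2 CPM in T0. The log2 fold change was 1.25 ± 0.11 (SE), edgeR adjusted p = 8.53e-06. The ERO1-domain gene g7812 overlapped between conditions, with 494, 501 and 583 CPM in BIN and 555, 427 and 554 CPM in T0.

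**Figure D3:**
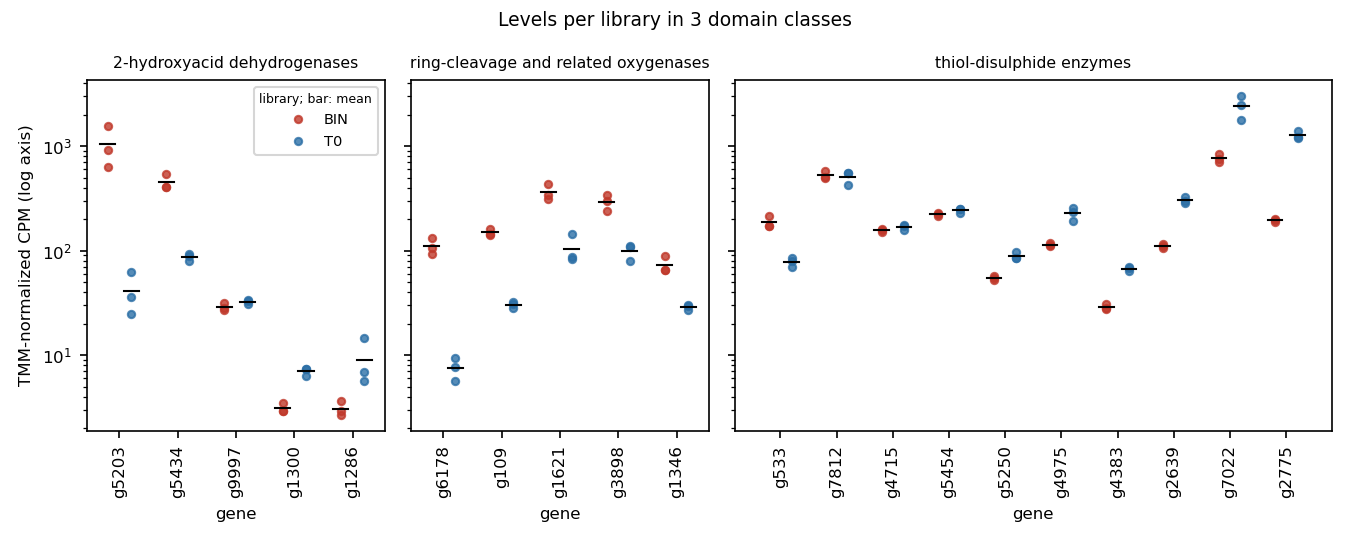
CPM per library, on a log axis, for the 2-hydroxyacid dehydrogenases, the ring-cleavage and related oxygenases and the thiol-disulphide enzymes, with BIN left of T0 for each gene and a bar at the mean of 3 libraries. All 5 oxygenases are higher in BIN, g5203 and g5434 stand far above their T0 libraries, and g2775, g7022 and g2639 fall below theirs.

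Other large rises came from single members of larger domain classes. The NmrA-like gene g7471, whose fold binds NAD(P) and is named after a regulator of nitrogen use in *Aspergillus nidulans*, had 55.0, 54.4 and 56.4 CPM in BIN and 5.70, 3.67 and 4.43 CPM in T0. The BIN libraries were nearly equal, and the log2 fold change was 3.62 ± 0.14 (SE), edgeR adjusted p = 6.67e-08. It is also annotated with a signal peptide. The other NmrA-like gene tested, g9690, had a log2 fold change of 0.48 and was not called. Among 11 genes of the GFO/IDH/MocA group, NAD(P)-dependent enzymes that act on sugars and inositols, g4194 alone was called higher on counts, and 1 more gene was on log2(TPM + 1). It had 100, 112 and 127 CPM in BIN and 11.5, 10.3 and 11.4 CPM in T0, a log2 fold change of 3.36 ± 0.11 (SE), edgeR adjusted p = 3.55e-08. In the same group g6668 and g6397 fell, with log2 fold changes of -1.49 ± 0.15 (SE), a call lost on log2(TPM + 1), and -1.60 ± 0.16 (SE), and the most abundant gene, g384, was not called, with 152, 154 and 165 CPM in BIN and 156, 165 and 156 CPM in T0.

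Of the genes with an alcohol dehydrogenase-like domain, 3 of 8 were called higher and none lower, against 11.3% and 14.5% of all genes. In 7 of the 8 every BIN library lay above every T0 library, against 37.6% of all genes. The iron-containing type g3677 had 329, 310 and 381 CPM in BIN and 72.1, 66.0 and 70.4 CPM in T0, and its log2 fold change was 2.29 ± 0.10 (SE), edgeR adjusted p = 1.3e-07. The medium-chain types g9922 and g9712 rose by 1.96 ± 0.13 (SE) and 1.18 ± 0.16 (SE), and the call of g9712 was lost under glmTreat. The most abundant of the 8, g3529, had 181, 178 and 206 CPM in BIN and 206, 240 and 219 CPM in T0. Its conditions overlapped, and its log2 fold change was -0.23 on counts and 0.20 on log2(TPM + 1). On that TPM scale 6 of the 8 genes were called higher and none lower.

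Among FAD-linked enzymes, which oxidize substrates such as amino acids and amines, g1040, with the domain of D-amino acid oxidases and glycerol 3-phosphate dehydrogenases, had 434, 427 and 448 CPM in BIN and 93.7, 75.8 and 84.1 CPM in T0. Its log2 fold change was 2.37 ± 0.10 (SE), edgeR adjusted p = 1.09e-07. A second gene with this domain, g2993, rose by 1.07 ± 0.08 (SE), and another, g3924, fell with -1.18 ± 0.13 (SE). Both calls were lost under glmTreat, and that of g3924 also on the TPM scales. The flavin-containing amine oxidoreductase genes g8197 and g8198, which carry consecutive numbers, both fell. The first had 1.41, 1.58 and 1.59 CPM in BIN and 5.81, 9.94 and 4.29 CPM in T0, a log2 fold change of -2.13 ± 0.35 (SE). The second had 24.1, 27.0 and 24.0 CPM in BIN and 93.3, 79.2 and 63.7 CPM in T0, with -1.65 ± 0.14 (SE), and its protein is on the list from culture supernatants.

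The deepest falls of the list were those of g10097 and 3 genes linked to desaturation or flavin chemistry. The gene g10097, which carries a cytochrome P450 domain although the list does not class it with the P450 genes, had 95.6, 80.1 and 69.1 CPM in BIN and 1118, 849 and 1013 CPM in T0. Its nearest libraries were 8.88-fold apart, with a log2 fold change of -3.61 ± 0.16 (SE), edgeR adjusted p = 1.44e-07. A gene with the N-terminal region of fatty acid desaturases, g3164, had 55.5, 55.9 and 63.6 CPM in BIN, against 506, 716 and 484 CPM in T0. The log2 fold change was -3.29 ± 0.17 (SE), edgeR adjusted p = 3.11e-07. Desaturases place double bonds in fatty acids of membrane lipids.

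The gene g7174, with no domain but a function term for desaturase-type oxidation, had 36.0, 44.5 and 45.1 CPM in BIN and 311, 517 and 357 CPM in T0, a log2 fold change of -3.24 ± 0.20 (SE), edgeR adjusted p = 2.99e-06. For g1075, which has no domain listed and a function term for oxidation of CH-CH groups with a flavin acceptor, the values were 412, 376 and 352 CPM in BIN and 3984, 3137 and 3492 CPM in T0. The nearest libraries of the conditions were 6.89-fold apart for g7174 and 7.62-fold for g1075, and the log2 fold change of g1075 was -3.22 ± 0.15 (SE), edgeR adjusted p = 1.58e-07. A further gene with no domain, g6865, fell with -2.09 ± 0.12 (SE). The gene g3823 had 3.48, 4.10 and 2.53 CPM in BIN and 7.97, 62.9 and 11.0 CPM in T0, where replicate 2 stood far above the other libraries. The log2 fold change was -3.05 ± 1.04 (SE), edgeR adjusted p = 0.0493. That p is barely past the threshold, and the call was lost when any 1 BIN replicate was left out (log2 fold change of g3823 from -3.21 to -2.87), with library size alone (-2.94), under glmTreat and on both TPM scales. Without T0 replicate 2 the log2 fold change of g3823 was -1.53 and the call was kept.

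The group of FMN-linked reductases, most of which pass electrons from NAD(P)H to enones, nitro groups or flavins, had 3 of 8 genes lower and none higher. Among all genes 14.5% were lower and 11.3% higher. On log2(TPM + 1) 2 of the 8 FMN-linked genes were lower and 1 higher. One of the 3 fallers, g6399, was placed in this group by a ferredoxin reductase-like NAD-binding domain. It fell with -1.11 ± 0.07 (SE), a call lost with library size alone, under glmTreat and on both TPM scales. The old yellow enzyme-type gene g10073 had 76.6, 68.8 and 79.9 CPM in BIN and 463, 416 and 516 CPM in T0. The fall was seen in all libraries, with a log2 fold change of -2.63 ± 0.11 (SE), edgeR adjusted p = 1.11e-07. Its neighbour by number and domain, g10074, overlapped between conditions, with 50.4, 41.3 and 45.4 CPM in BIN and 51.1, 40.6 and 50.0 CPM in T0. The nitroreductase-domain gene g9025 had 218, 162 and 168 CPM in BIN and 1111, 437 and 672 CPM in T0, so that the T0 libraries differed by up to 2.54 times. The log2 fold change was nonetheless -2.02 ± 0.34 (SE), edgeR adjusted p = 0.00134. Of 3 GMC oxidoreductase genes, a family that includes glucose and alcohol oxidases that make hydrogen peroxide, g5676 was called lower. It had 23.4, 18.5 and 26.0 CPM in BIN and 108, 83.5 and 102 CPM in T0, a log2 fold change of -2.11 ± 0.14 (SE), edgeR adjusted p = 2.03e-06, and its protein is in the list from culture supernatants.

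**Figure D4:**
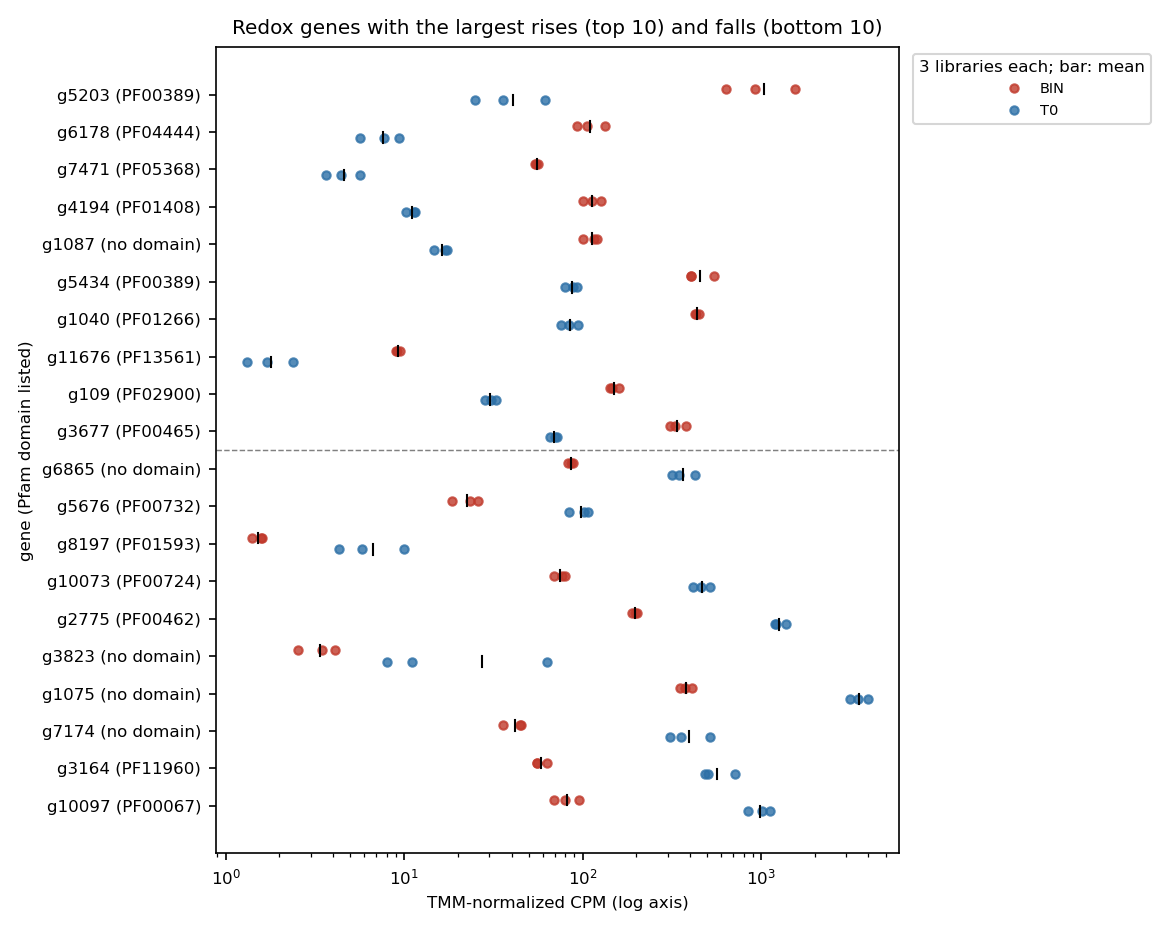
CPM per library, on a log axis, of the 10 called redox genes with the largest rises (upper rows) and the 10 with the largest falls (lower rows), with BIN above T0 for each gene and a bar at the mean of 3 libraries. The conditions do not overlap in any of the 20 genes, which were picked for their large called changes. The wide T0 spread of g3823 comes from replicate 2 at 62.9 CPM.

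Short-chain dehydrogenases, the largest domain class, reduce or oxidize alcohols and ketones with NAD(P) in pathways from lipids to secondary metabolites. Of 36 genes, 4 (11.1%) were called higher and 8 (22.2%) lower, against 11.3% and 14.5% of all genes. The median log2 fold change of the class was -0.09, while 6 genes were higher and 2 lower on log2(TPM + 1). The gene with the highest rise, g11676, was of low abundance, with 9.43, 9.07 and 9.12 CPM in BIN and 1.71, 2.40 and 1.32 CPM in T0, and had a log2 fold change of 2.34 ± 0.20 (SE), edgeR adjusted p = 7.74e-06. The deepest fall was in g2142, which had 2.15, 2.60 and 3.04 CPM in BIN and 9.68, 9.73 and 11.5 CPM in T0, with -1.98 ± 0.17 (SE). The most abundant gene of the class, g5489, overlapped between conditions, with 147, 125 and 132 CPM in BIN and 148, 81.8 and 134 CPM in T0. The counting program is not given in the sources used here. Reads on near-identical members of such a large family may have been split between genes, and single values of this class are uncertain in that respect.

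The pyridine nucleotide-disulphide oxidoreductases, flavoproteins that include NADH dehydrogenases and thioredoxin and glutathione reductases, had a median of 0.37. In this class 8 of 11 genes were higher in every BIN library than in every T0 library, against 37.6% of all genes. Only g4729 was called higher, by 1.66 ± 0.11 (SE). In this class g1123 was called lower, with -1.42 ± 0.09 (SE), a call lost on the TPM scales, and the abundant g179 was not called, with 0.13. Of 7 2-oxoglutarate and iron-dependent oxygenases, g4086 rose by 1.59 ± 0.10 (SE), and g1387 and g9655 fell, with -1.93 ± 0.16 (SE) and -1.79 ± 0.13 (SE). Of 6 acyl-CoA dehydrogenase and electron transfer flavoprotein genes, which feed electrons from fatty acid oxidation to the respiratory chain, g5505 rose by 1.50 ± 0.10 (SE) and g11634 fell, with -1.73 ± 0.10 (SE). The electron transfer flavoprotein-domain gene g653 overlapped between conditions, with 188, 191 and 189 CPM in BIN and 172, 193 and 188 CPM in T0. Among 7 haem and copper proteins g2511, with the domain of the electron carrier cytochrome b5, rose by 1.67 ± 0.10 (SE), and g10097 was the only one called lower. In 4 of the 7 every BIN library lay below every T0 library, against 38.0% of all genes. Of 5 extended short-chain dehydrogenases g7471 was the only one called higher and g4000 the only one called lower, with -1.25 ± 0.22 (SE), a call lost under glmTreat and on both TPM scales. In this class 4 of 5 genes had every BIN library above every T0 library, against 37.6% of all genes. The most abundant in sum of both conditions, g3999, had a log2 fold change of 0.13. On log2(TPM + 1), 4 pyridine nucleotide-disulphide oxidoreductases were called higher and none lower, 2 acyl-CoA dehydrogenase-type genes were higher and 1 lower, and 2 extended short-chain dehydrogenases were higher and none lower. The 39 genes with no domain had 7 rises (17.95%) and 8 falls (20.5%) on counts, against 11.3% and 14.5% of all genes. On log2(TPM + 1) they had 9 rises and 3 falls. The highest rise among them was in g1087, which had 116, 101 and 120 CPM in BIN and 17.3, 14.7 and 17.0 CPM in T0, a log2 fold change of 2.79 ± 0.10 (SE), edgeR adjusted p = 6.07e-08.

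**Figure D5:**
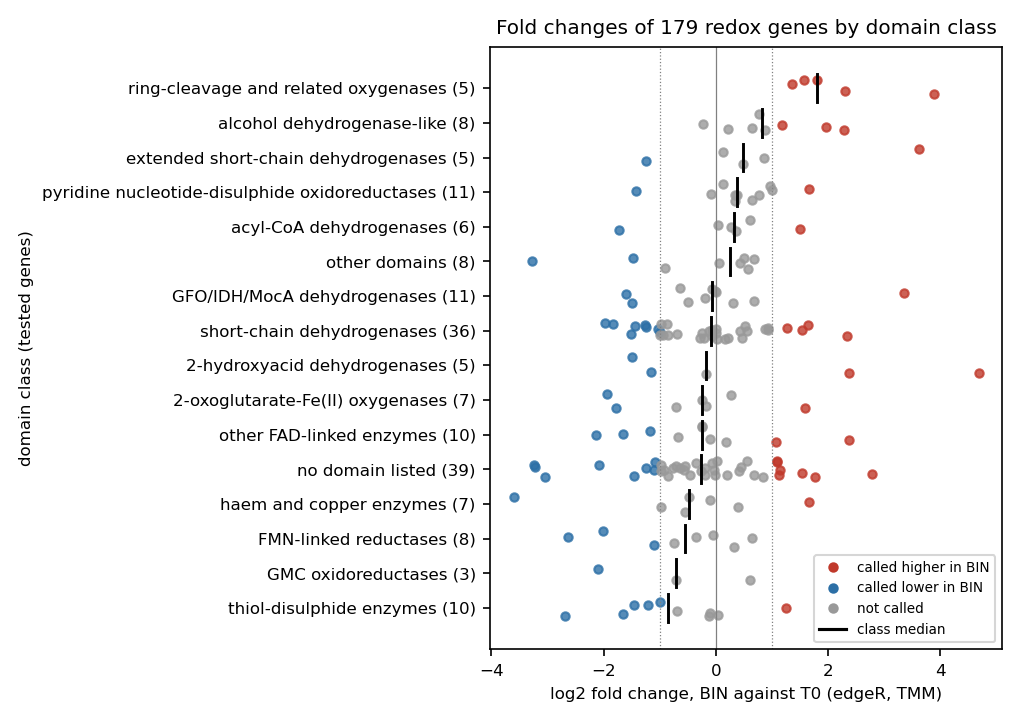
Log2 fold change, BIN against T0 from edgeR, of each of the 179 redox genes by domain class, with the number of tested genes in brackets, a bar at the class median and dotted lines at a 2-fold change. All 5 ring-cleavage and related oxygenases lie right of the 2-fold line (median 1.79), the thiol-disulphide enzymes have the lowest median (-0.85), and most other classes hold both rises and falls.

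Some of the most abundant redox genes differed little between conditions. The thioredoxin-domain gene g5454, next after g5203 by TPM in BIN, had 226, 215 and 228 CPM in BIN and 252, 228 and 253 CPM in T0. All BIN libraries lay just below all T0 libraries, with a log2 fold change of -0.13 ± 0.08 (SE) that was not past the threshold, and in TPM the order was the other way, at 540 ± 7.98 TPM in BIN and 436 ± 11.6 TPM in T0 (SD, n = 3 each). The gene g5798, with no domain listed, had 495, 538 and 532 CPM in BIN and 590, 665 and 630 CPM in T0, again without overlap. Its log2 fold change was -0.27 ± 0.10 (SE), edgeR adjusted p = 0.0351, past the p threshold but under 2-fold. In TPM the direction of g5798 was also upward, so for neither gene does the direction hold across scalings.

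Redox genes with neighbouring numbers are described here without a comparison, since the share over all neighbouring genes was not computed. There were 22 pairs whose numbers differed by 1 or 2, with 40 genes, and 11 of the pairs shared a domain class. Both genes were called in 3 pairs: g7979 and g7981 rose (log2 fold changes 1.53 and 1.09), g8197 and g8198 fell, and g522 was called higher and g523 lower (1.09 and -1.08). Of these calls, that of g7981 was lost under glmTreat and without T0 replicate 2, and that of g522 under glmTreat, without T0 replicate 3 and with the length trend removed (0.23). The g523 call was lost under glmTreat, with library size alone, on both TPM scales, and without BIN replicate 1 or T0 replicate 2. In 11 pairs 1 gene was called and in 8 none. The short-chain dehydrogenase g7470, next to g7471, had a log2 fold change of -0.12 and was not called. Whether genes with neighbouring numbers share a scaffold is not given in the sources used here.

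Replicates of the redox genes were about as close as those of other genes. The median coefficient of variation of CPM was 6.94% in BIN and 10.6% in T0, and 6.73% and 10.3% over all genes. Over 40% it was found for 3 genes in BIN, among them g5203, and for 9 genes in T0, among them g3823, g1286 and g9025. For comparison, of the annotation list's 158 tested P450 genes 19 (12.0%) were called higher and 47 (29.75%) lower. Of its 27 alcohol dehydrogenases 7 (25.9%) were called higher and 7 (25.9%) lower. Of its 27 aldo/keto reductases 3 (11.1%) were called higher and 1 (3.7%) lower. Over all genes the shares were 11.3% higher and 14.5% lower. The differences between these lists and the redox genes were not tested. One further oxidoreductase gene, g9473, appears only among the proteins of culture supernatants and not in the class Redox. It had 2.81, 3.55 and 3.19 CPM in BIN, against 23.4, 81.1 and 30.6 CPM in T0, a log2 fold change of -3.83 ± 0.59 (SE), edgeR adjusted p = 0.00161. The paper reports the g9473 protein as upregulated relative to glucose on Avicel, sugarcane bagasse and *Eucalyptus*. Those supernatants came from separate static cultures of 7 days, so the RNA and protein changes are not directly comparable.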

How the data were processed

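Libraries were made with the Illumina TruSeq mRNA kit from 3 BIN and 3 T0 samples. The authors trimmed reads with Trimmomatic 0.32, removed rRNA with SortMeRNA, mapped the rest to their own assembly with TopHat2, and deposited raw whole-number counts for each predicted gene. The counting program is not given in the sources used here. The deposited TPM values equal these counts per unit of gene length, scaled to a fixed sum per library. The submitters' notes also name DESeq2.

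Counts were compared between BIN and T0 in edgeR 4.0.16 (R 4.3.3) with TMM normalization, filterByExpr, which removed none of the 10015 genes, robust glmQLFit and glmQLFTest, without a replicate block. Benjamini-Hochberg adjustment covered the 10015 genes. The SE is the log2 fold change divided by the square root of F. With 3 against 3 libraries, permuting the libraries cannot give a p below 0.1. Read counts are not independent molecules, so intervals cover the spread between libraries only. The table holds only genes with 1 CPM or more in each library, and a gene silent in one condition was therefore not tested. Gene numbers of this strain matched none of the 13840 genes of a reference list of another strain, so no positions or sequences are given. Gene length is the ratio of counts to TPM, relative to the median gene.

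Genes are named by a rule: the genes given with the list (g5203, g6178, g7471 and, outside it, g9473), the 10 largest rises and falls, the 6 highest TPM means per condition, members among the supernatant proteins, the most abundant and most changed member of each domain class, and called neighbours by number. Other genes named were chosen after their values were seen. Members, domain classes and tests were chosen with earlier results of these data known. Alternatives were DESeq2 1.42.0, library size alone, RLE normalization, a mean of at least 10 CPM, no filter, unadjusted p, glmTreat, a replicate block, limma 3.58.1 on log2 TPM with pseudocounts of 1 and 0.1, removal of a lowess trend (span 0.3) on gene length, and each library left out. The alternatives with no filter and with unadjusted p could not remove a call, since filterByExpr removed no gene and adjustment never lowers p. The scripts were tested on simulated data.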

Additional observations from a re-analysis of the deposited data

How the results depend on the processing

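The count of all genes called higher (1134) became 737 under glmTreat, 2136 on log2(TPM + 1) and 2409 on log2(TPM + 0.1), and that of genes called lower (1457) became 916, 730 and 769. Redox genes called higher (30) became 49 on log2(TPM + 0.1), and those called lower (40) became 26 under glmTreat, 20 on log2(TPM + 1) and 21 on log2(TPM + 0.1). The share of redox calls that were higher was 42.9% in the reported analysis, 69.2% and 70.0% on the TPM scales and 52.2% with library size alone. These scalings moved the median of all genes by 0.40, 0.43 and 0.13 on the log2 scale. The median log2 fold change of the redox genes was 0.068 with library size alone, 0.34 and 0.38 on the TPM scales and -0.012 with the length trend removed. The difference in the summed TPM of redox genes, BIN minus T0 (-3356), was -162 without g7022 and -4574 in CPM of the library total without TMM. Leaving out single libraries gave 1095 to 1201 genes higher, 1412 to 1549 lower, 30 to 32 redox genes higher, 38 to 45 lower, medians of -0.11 to -0.06 and differences in summed TPM of -3647 to -2816. A sign was reversed in at least one setting for 40 of the 109 redox genes that were not called and for none of the 70 called. Among the genes named by the rule these were g5454 (0.010 with library size alone, 0.31 on both TPM scales, 0.26 with the length trend removed), g5798 (0.17 on both TPM scales), g384 (0.12 with library size alone, 0.41 and 0.42 on the TPM scales, 0.003 without BIN replicate 1, 0.0003 without T0 replicate 2, with a range of -0.060 to 0.003 over single libraries left out), g653 (-0.019 without T0 replicate 1, with a range of -0.019 to 0.059), g3529 (0.20 on both TPM scales) and g5489 (-0.071 without T0 replicate 2, with a range of -0.071 to 0.31). The cause of these changes was not tested. Whether the replicate numbers pair the samples is not known. Deviations of same-numbered libraries correlated at 0.03, 0.01 and -0.10, which cannot show whether those samples shared an inoculum. A replicate block called 1146 genes higher and 1441 lower, with 30 and 39 redox genes and a median of -0.05. DESeq2 kept 69 of the 70 redox calls.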
